A study of Homo sapiens with 6 samples.

Results

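The baseline transcriptome of K562 cells that had received the empty pCMV-HA vector (EV) was described from 2 of the 6 libraries of the series, those labelled as empty vector control, replicates 1 and 2. All 25702 genes listed in the tables were taken as measured, with no contrast to the other plasmids. The series compared EV with the same plasmid carrying MXD3 or STIM1::MXD3, each in 2 libraries from separate transfections, and asked what the fusion does to gene expression. The cells were K562, an established line, in all 3 groups, they received no drug, and all had been nucleofected, so the EV libraries show transfected cells and not untouched ones. No untransfected K562 library was analysed here, and an effect of the transfection itself cannot be told apart from the resting state of the line. By default, expression assays followed 72 h after transfection, and the labels give no time for single libraries.

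K562 was grown from the pleural effusion of a patient with chronic myeloid leukaemia in blast crisis. It carries the Philadelphia chromosome, whose BCR::ABL1 fusion encodes an always active tyrosine kinase that signals through STAT5, RAS and PI3K. The line stands between the erythroid and the megakaryocytic lineage, makes embryonic and fetal haemoglobins and is known to lack the CDKN2A and CDKN2B genes. It is also the classical target of natural killer (NK) cells, as it shows little or no HLA class I on its surface.

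The EV libraries held 53048343 counts (replicate 1) and 59603286 counts (replicate 2). A gene's level is given as CPM, its counts per 1000000 counts of the library, where the libraries are compared. Where genes are compared it is given as TPM, which first divides the counts by exon length and then scales the sum over genes to 1000000. In pairs of values the first is always EV replicate 1 and the second EV replicate 2. One count was worth 0.0189 and 0.0168 CPM. A gene with 0 counts could still stand at up to 0.0566 CPM in replicate 1 and 0.0503 CPM in replicate 2 (3 counts of the total), which covers counting error only. MXD3, the gene carried by both other plasmids, had 8.95 and 11.9 CPM in EV, 2540 and 2223 CPM in the MXD3 libraries and 1898 and 1906 CPM in those of STIM1::MXD3. STIM1 had 196 and 178 CPM in EV, 188 and 164 CPM with MXD3, and 453 and 467 CPM with STIM1::MXD3. For both genes the EV libraries lay where their label puts them.

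Of the 25702 genes, 16632 had at least 1 count in both libraries, 12070 reached 1 CPM in both and 7047 had 0 counts in both. Protein-coding genes numbered 18918, and 11096 of them (58.7%) reached 1 CPM in both libraries, while 4500 (23.8%) had 3 counts or fewer in both. These shares are the background for the counts of every gene list below. Of 1588 long non-coding RNA genes, 346 (21.8%) reached 1 CPM. The most counted of these, named after their values were seen, were SNHG29 with 486 and 647 CPM, GAS5 with 380 and 402 CPM and NORAD with 288 and 414 CPM. SNHG29 and GAS5 host small nucleolar RNAs in their introns. The 87 genes with a mean of 1000 CPM or more took 18.1% and 16.5% of all counts, and the 6721 genes between 10 and 100 CPM took 27.3% and 28.3%.

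The most counted transcripts belonged to translation, iron storage, mitochondria and embryonic haemoglobin. EEF1A1, which brings aminoacyl-tRNA to the ribosome, came first by CPM with 15185 and 14530. EEF2, the translocation factor, followed with 6720 and 6081 CPM, and FTH1, the ferritin heavy chain, with 5142 and 3875 CPM. The next places were taken by RPLP0, MT-CO1, HBE1, MT-ND4, FTL, RPL4 and PABPC1, and then by MT-RNR2, RPS2, RPL3, MT-CO3 and EEF1G. Per length the order changed. HBE1, the embryonic epsilon globin, came first by mean with 16178 and 16795 TPM, ahead of FTL, the ferritin light chain, with 16662 and 13907 TPM. The libraries of these 2 genes overlapped, so their order was within the spread. MT-CO2, 3rd by mean, had 18084 and 9448 TPM and overlapped with both, so it was highest in replicate 1. Among the 15 genes of highest TPM were 7 mitochondrially encoded genes besides MT-RNR2, and the others were FTH1, RPS12, HBG2, EEF2 and EEF1A1. This order depends on the length used. With the length of the canonical transcript HBE1 stayed 1st, but EEF1A1 ranked 2nd and FTL 3rd. MT-ND2, MT-RNR2, MT-ATP6 and MT-ND4L then ranked 22nd, 25th, 38th and 44th. The 10 most counted genes held 5.63% and 4.75% of the counts, and the 100 most counted held 19.4% and 17.8%.

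Promoter sequences are shown for 4 genes on which the account of the line turns. EEF1A1 is the most counted gene. PIM1 is the highest gene of the BCR::ABL1 list. GATA1 is the erythroid regulator of highest mean TPM, and ALAS2, the enzyme of the first step of haem synthesis in red cell precursors, marks the lineage. Each is the RefSeq sequence (GRCh38.p14) of the 250 bases before the gene's start, written 5′ to 3′ on the gene's strand. Capitals mark matches, on either strand, to 6 short motifs. TATAAA is the TATA box of some strong promoters. CCAAT is the box bound by nuclear factor Y. GATA factors bind the letters AGATAA, and KLF1 binds within CACCC elements. MYC with its partner MAX binds the E-box CACGTG. Lastly, SP1 and its relatives bind the GC box GGGCGG. None of the 6 contains another.
EEF1A1, chr6:73521033-73521282, minus strand: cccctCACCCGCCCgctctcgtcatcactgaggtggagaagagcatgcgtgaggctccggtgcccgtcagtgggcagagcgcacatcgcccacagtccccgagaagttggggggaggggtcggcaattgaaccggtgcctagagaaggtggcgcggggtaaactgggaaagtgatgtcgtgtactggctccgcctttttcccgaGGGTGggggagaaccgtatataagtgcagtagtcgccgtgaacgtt
PIM1, chr6:37169902-37170151, plus strand: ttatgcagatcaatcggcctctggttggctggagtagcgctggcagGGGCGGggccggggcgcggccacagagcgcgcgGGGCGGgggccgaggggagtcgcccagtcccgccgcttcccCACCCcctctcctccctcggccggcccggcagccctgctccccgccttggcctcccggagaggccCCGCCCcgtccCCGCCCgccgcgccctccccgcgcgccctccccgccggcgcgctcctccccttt
GATA1, chrX:48786340-48786589, plus strand: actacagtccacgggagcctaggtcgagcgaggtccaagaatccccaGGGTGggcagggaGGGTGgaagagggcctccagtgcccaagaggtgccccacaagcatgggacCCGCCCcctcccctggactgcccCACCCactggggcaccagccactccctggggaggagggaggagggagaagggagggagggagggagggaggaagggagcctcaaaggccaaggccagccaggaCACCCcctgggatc
ALAS2, chrX:55030978-55031227, minus strand: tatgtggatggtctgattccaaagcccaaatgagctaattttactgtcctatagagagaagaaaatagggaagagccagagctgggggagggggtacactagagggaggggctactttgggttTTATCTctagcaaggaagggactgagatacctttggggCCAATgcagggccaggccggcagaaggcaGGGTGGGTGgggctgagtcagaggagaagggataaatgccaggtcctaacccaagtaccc

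The window of PIM1 held 79.6% G and C and 4 GC box matches, at 204, 171, 65 and 54 bases before the start, and 1 CACCC match at 130 bases. That of GATA1 held 4 CACCC matches and 1 GC box match. The ALAS2 window held 1 match to AGATAA, 127 bases before the start, a CCAAT match at 89 bases and a pair of CACCC matches at 60 and 56 bases. EEF1A1 had a GC box match at 242 bases and CACCC matches at 245 and 46 bases. A match is a description of letters, not a bound site. TATAAA was in none of these 4 windows, which says only that these exact letters are not there.

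The globins were embryonic and fetal. HBE1 had 3954 and 3992 CPM, HBG2 1497 and 1362 CPM and HBG1 350 and 220 CPM. HBG2 and HBG1 encode fetal gamma globin from nearly identical copies, so their split is uncertain, and the annotated loci of HBE1 and HBG2 overlap in GRCh37. Of the TPM of the beta-like genes, HBE1 held 67.0% and 70.1%, and the gamma genes together held 32.9% and 29.9%. The adult genes HBB and HBD held 0.0952% and 0.0643%. HBB was at 35 and 36 counts, or 0.660 CPM (95% exact Poisson interval 0.460 to 0.918, counting error only) and 0.604 CPM (0.423 to 0.836). HBD, the minor adult gene, stood higher, at 6.15 and 3.86 CPM. Both libraries of each therefore lay far below both of HBG1.

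On the alpha-like side, HBZ (GRCh37 chromosome 16, 192727 to 204502, plus strand), the embryonic zeta globin, had 13396 and 8763 counts, or 253 and 147 CPM, with a mean of 200 ± 74.6 CPM (SD, n = 2). It held 48.3% and 37% of the TPM of the alpha-like genes. HBA2 had 69.7 and 89.3 CPM and HBA1 64.5 and 34.9 CPM, and these near-identical copies together held 35.9% and 43.7%, so zeta was above the alpha pair in replicate 1 and below it in replicate 2. HBQ1, theta globin, had 37.6 and 34.8 CPM, and HBM, mu globin, had 7 and 2 counts. In order of TPM the globins ran HBE1, HBG2, HBG1, HBZ, HBA2, HBQ1, HBA1, HBD, HBB and HBM. HBG1 and HBZ did not differ beyond their spread, nor did HBQ1 and HBA1, and the other neighbours were apart in both libraries. The beta-like genes had 13.6 and 17.3 times the TPM of the alpha-like genes. All 10 globins summed to 6231 and 5885 CPM.

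The regulators that build a red cell were present, and those of the adult globin switch were not all. Of 27 erythroid and megakaryocytic transcription factors, 24 reached 1 CPM in both libraries, with a list median of 121 TPM against 4.94 TPM over protein-coding genes. GATA1, the master factor of the erythroid lineage, led with 778 and 721 TPM. KLF1, which binds CACCC letters in erythroid promoters, had 758 and 663 TPM. HEMGN had 580 and 598 TPM, LYL1, a partner of LMO2, had 561 and 394 TPM and NFE2 had 494 and 444 TPM. The libraries of GATA1 and KLF1 overlapped, and with the length of the canonical transcript the mean of GATA1 was 432 TPM instead of 749 TPM, below the 547 TPM of LYL1. TAL1 had 218 and 239 CPM and GATA2, the progenitor factor that GATA1 replaces, 167 and 176 CPM. MYB, which holds progenitors in division, had 392 and 309 CPM, and RUNX1 had 40.0 and 58.1 CPM. BCL11A, the repressor of the gamma globin genes in adult cells, had 0 counts in both libraries. FLI1 and ERG, ETS factors of megakaryocytes and stem cells, had 0 and 2 counts each. SOX6, which works with BCL11A, was detected at 25.7 and 22.9 CPM.

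**Figure D1:**
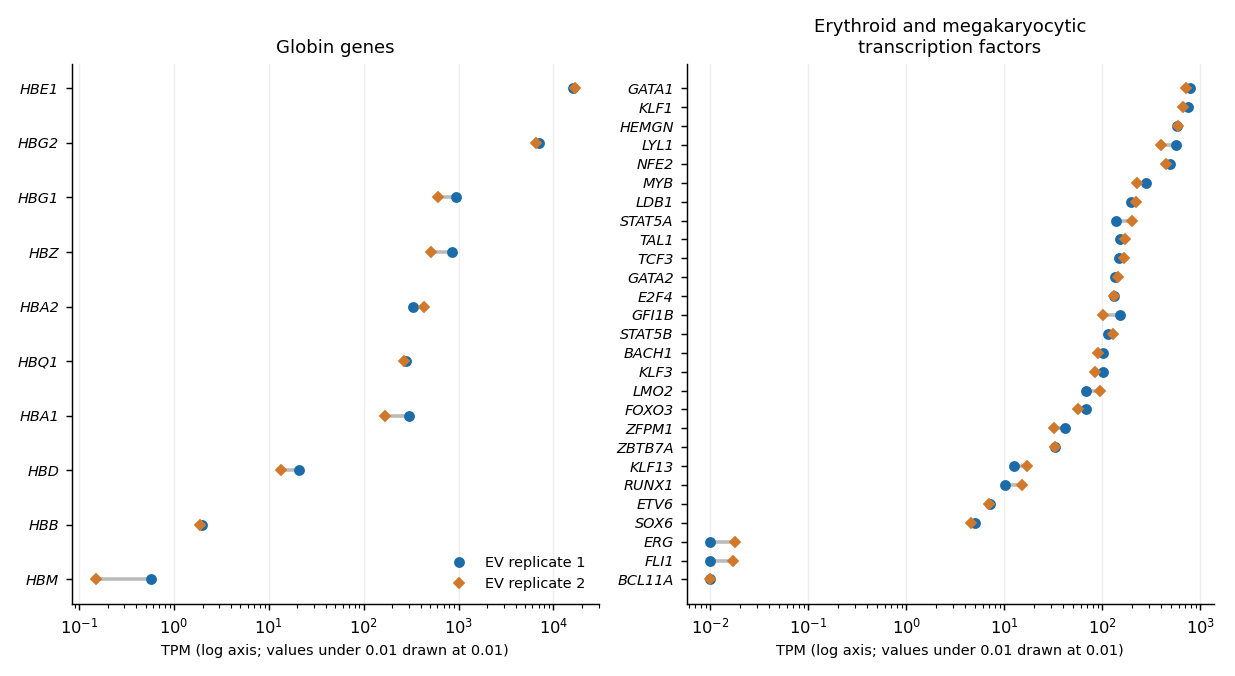
TPM of each globin gene (left) and each erythroid or megakaryocytic transcription factor (right) on a log axis, with a circle for EV replicate 1, a diamond for EV replicate 2 and a grey bar between them. HBE1 stands at 16178 and 16795 TPM and HBB near 2 TPM, and 24 of the 27 factors lie well to the right of BCL11A, FLI1 and ERG.

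Genes of the red cell membrane and of haem synthesis were nearly all on. Of 28 membrane and surface genes, 26 reached 1 CPM in both libraries and none had 3 counts or fewer. RHAG, the Rh-associated ammonium channel, led per length with 1015 and 835 TPM. GYPC, glycophorin C, had 294.6 and 288.5 TPM and TFRC, the transferrin receptor, 260 and 280 TPM. GYPB, which has close paralogs, had 49.3 and 98.8 TPM. SLC4A1, the band 3 anion exchanger, had 38.6 and 34.6 TPM and SPTB, a spectrin, 30.5 and 39.6 TPM, which overlapped. EPOR, the erythropoietin receptor, had 42.2 and 48.8 TPM. The 2 members under 1 CPM were ACKR1, the Duffy receptor, with 51 and 30 counts, and ART4, the Dombrock antigen, with 10 and 8 counts.

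In the haem and iron list 28 of 29 genes reached 1 CPM. FTL and FTH1 led, and BLVRB, biliverdin reductase B, followed with 1257 and 1414 TPM. TMEM14C, which moves haem precursors in the mitochondrion, had 697 and 766 TPM and NCOA4, the receptor for ferritin breakdown, 754 and 595 TPM. ALAS2, the erythroid first enzyme, had 183 and 151 CPM, above the 50.0 and 48.1 CPM of its ubiquitous form ALAS1. Per length both libraries of ALAS2 lay above both of ALAS1 as well, with a mean of 325 against 77.1 TPM. FECH, the last enzyme, had 55.4 and 55.0 TPM. HMOX1, which degrades haem and rises under oxidative stress, had 1 and 0 counts.

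Most megakaryocyte and platelet genes did not reach 1 CPM. Of 25 genes, 8 reached it in both libraries, a lower share than the 58.7% of all protein-coding genes. A further 12 had 3 counts or fewer, a higher share than the 23.8% of all protein-coding genes. ITGB1, a broadly expressed integrin, had 696 and 693 CPM, and GFI1B, shared with red cells, had 233 and 154 CPM. TUBB1, platelet tubulin, had 58.1 and 69.5 CPM, ITGA2B (CD41) 21.2 and 29.1 CPM and GP6, the collagen receptor, 10.8 and 13 CPM. The granule and receptor genes GP1BB, GP5, GP9 and PF4V1 had 0 counts in both libraries, and PF4 had 0 and 2.

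Of 28 granulocyte and monocyte genes, 8 (28.6%) reached 1 CPM in both libraries, beside 58.7% of all protein-coding genes. A further 9 (32.1%) had 3 counts or fewer, beside 23.8%, and the list summed to 245 and 233 CPM. Most of that sum was CD68, a lysosomal protein also made outside macrophages, with 131 and 122 CPM. SPI1 (PU.1), the myeloid factor that opposes GATA1, had 58.2 and 53.5 CPM, LYZ, lysozyme, 24.2 and 27.5 CPM and CD33 16.6 and 18.9 CPM. AZU1, an azurophil granule protein, had 4.26 and 2.84 CPM. MPO, the defining granule enzyme, had 2 and 0 counts, S100A9 had 1 and 0, and CTSG, S100A8 and S100A12 had 0 in both. CSF2RA had 0 counts too, and it lies at the end of Xp, where 6 of 15 genes reached 1 CPM in both libraries.

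Lymphoid genes were sparse beside the 58.7% of all protein-coding genes at 1 CPM or more in both libraries. Of the B cell genes 3 of 13 (23.1%) reached it, and of the T and NK cell genes 3 of 21 (14.3%). Among the B cell genes were CD22 with 9.90 and 8.52 CPM and CR2 with 1.66 and 1.16 CPM. MS4A1, IGLL1 and VPREB1 had 0 counts and PAX5 0 and 2. CD3D, part of the T cell receptor complex, had 17.3 and 23.9 TPM, PRF1, perforin, 10.4 and 15.9 TPM and TCF7 3.19 and 5.12 TPM. CD8A, CD8B, CD28 and LCK had 0 counts. The lists of lymphoid genes summed to 13 and 11.5 CPM for B cells and 32.2 and 45.6 CPM for T and NK cells.

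Among 20 stem and progenitor genes, 9 (45.0%) reached 1 CPM in both libraries, beside 58.7% of all protein-coding genes. HOXB4 had 68.9 and 87.3 TPM and LIN28B, a fetal blocker of let-7 microRNAs, 37.1 and 46.6 TPM. KIT, the stem cell factor receptor, had 24.9 and 13.5 TPM, and MECOM (EVI1) 7.47 and 10.1 TPM. CD34, PROM1, FLT3, HOXA9 and HOXA10, surface markers and homeobox genes common in acute myeloid leukaemia, had 0 counts in both libraries, and THY1 had 2 and 0.

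A list of epithelial, fibroblast and endothelial genes, written to look for RNA of other cells, was not empty. The simple keratins KRT18 (386 and 423 TPM), KRT19 (441 and 363 TPM) and KRT8 (217 and 231 TPM) and the adhesion gene EPCAM (145 and 132 TPM) were high. KRT5, KRT14, LUM, CDH5, KDR and TEK were at 0 counts in both, and CDH1, E-cadherin, was at 10 and 8 counts. In all, 7 of the 20 genes reached 1 CPM in both libraries, a lower share than the 58.7% of all protein-coding genes. The origin of these transcripts was not tested.

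Genes around BCR::ABL1 were the group in which PIM1 stood out. Of 34 genes 31 reached 1 CPM in both libraries. PIM1 (GRCh37 chromosome 6, 37137928 to 37143204, plus strand), a serine/threonine kinase gene switched on by STAT5, had 133664 and 92085 counts, or 2520 and 1545 CPM, with a mean of 2032 ± 689 CPM (SD, n = 2). Per length it had 3270 and 2061 TPM, and both values were above both values of CRKL, an adaptor and direct substrate of the kinase, with 497 and 505 TPM. PIM1 ranked 33rd of all genes by mean TPM, and its relatives PIM3 and PIM2 had 321 and 252 TPM and 115 and 178 TPM. With the length of the canonical transcript in place of all exons the mean level of PIM1 was 1628 TPM instead of 2666 TPM and the rank was 89.

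ABL1 had 439 and 445 CPM and BCR 244 and 253 CPM. Per length ABL1 (247 and 257 TPM) was above BCR (78.4 and 83.7 TPM) in both libraries. Counts per gene do not separate the fusion transcript from those of the normal alleles. STAT5A and STAT5B, neighbouring genes of similar sequence, had 138 and 203 TPM and 115 and 127 TPM. STAT5A was thus above STAT5B per length in both libraries, though lower by CPM (224 and 321 against 354 and 381 CPM). GAB2, a docking protein, had 353 CPM in each library. Of the feedback genes, SOCS2 had 61.8 and 63.6 TPM and CISH 52.2 and 52.6 TPM, and SOCS1 had 73.5 and 34.8 TPM. DUSP6, a phosphatase induced by ERK, had 16 and 18 counts. IL3RA, at the end of Xp, had 3 and 1 counts.

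Of 30 oncogenes, 25 reached 1 CPM in both libraries. PRAME, a tumour antigen that holds back retinoic acid signalling, had 2169 and 2071 TPM. CDK4 had 306 and 334 TPM, CCND3 249 and 255 TPM and NRAS 152 and 151 TPM. JUN and FOS, whose products join in the AP-1 factor, lay far apart: JUN had 287 and 208 CPM, FOS 16 and 17 counts, or 0.302 and 0.285 CPM. MYCN and EGFR had 0 counts.

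MYC (GRCh37 chromosome 8, 128747680 to 128755197, plus strand) had 11454 and 12909 counts, or 216 and 217 CPM, with a mean of 216 ± 0.471 CPM (SD, n = 2). It was the highest of the 13 genes of its network per length, with 139 and 143 TPM, above MLX with 75.2 and 74.4 TPM in both libraries, and it ranked 1233rd of all genes. Its partner MAX had 25.3 and 29.5 TPM. Of the repressive MXD group, MXD1 had 68.8 and 52.9 TPM, MXI1 41.1 and 37.5 TPM, MXD4 26.6 and 29.9 TPM and MXD3 7.42 and 10.1 TPM. MXD3 was the lowest member that was detected, below MGA (13 and 17.6 TPM) in both libraries. MYCL, a relative of MYC, had 23.3 and 36.4 TPM.

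By mean TPM a pair of survival genes led the apoptosis list. BCL2L1 (BCL-XL) had 163 and 216 TPM and MCL1 107 and 138 TPM. BCL2 itself had 19 and 32 counts, or 0.358 CPM (95% exact Poisson interval 0.216 to 0.559) and 0.537 CPM (0.367 to 0.758). The killer gene BBC3 (PUMA) came next with 104 and 107 TPM, and in replicate 1 it was close to MCL1. The killers BAX and BCL2L11 (BIM) had 56 and 77 TPM and 30.5 and 24.1 TPM. In all 18 of 22 genes reached 1 CPM.

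Of 28 tumour suppressors, 25 reached 1 CPM in both libraries. CDKN1C, the p57 cell cycle inhibitor, led with 169 and 132 TPM. STK11 had 179 and 220 CPM. Per length, CDKN2C had 64.6 and 88.6 TPM, CDKN1A (p21) 41.2 and 64.6 TPM and RB1 56.1 and 49.0 TPM. The other 3 members, CDKN2A, CDKN2B and MTAP, had 0 counts in both libraries, and they are neighbours on 9p21.

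The zero extended along 9p21. Between 19 and 27 Mb of chromosome 9 (GRCh37) lie 38 annotated protein-coding genes. Of them 11 reached 1 CPM in both libraries and 26 had 3 counts or fewer. In the 5 Mb before this window 5 of 13 genes reached 1 CPM, and in the 5 Mb after it 3 of 8. Over all protein-coding genes it was 58.7%. The flanks were thus low as well, and the share of the window alone does not set it apart from them. From HACD4 to TUSC1 (20999508 to 25678442, 4.68 Mb) a run of 24 genes had 0 counts in both libraries without a break. Of these 16 were type I interferon genes, which most resting cells do not use. The other 8 include CDKN2A, CDKN2B and MTAP, the last an enzyme of the methionine salvage pathway that most tissues express. On the near side of the run, FOCAD had 121 and 137 counts (2.28 and 2.30 CPM), and farther out RPS6, a ribosomal protein gene, had 1100 and 1184 CPM. On the far side CAAP1 had 14.9 CPM in each library and PLAA 45.4 and 36.8 CPM. DNA was not measured here, so an absent locus and a silent one cannot be told apart from these counts.

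A wider interval on 6p was also near 0, and it limits what can be said of antigen presentation. It was chosen after the values were seen. Between positions 28500000 and 33500000 of chromosome 6 (GRCh37), a stretch that holds the HLA genes, 7 of 163 protein-coding genes (4.29%) reached 1 CPM in both libraries and 100 had 3 counts or fewer. In the 5 Mb before it 55 of 100 genes reached 1 CPM and in the 5 Mb after it 40 of 61, against 58.7% over all protein-coding genes. Genes that dividing cells need were among the low ones. TUBB, the main beta tubulin, had 18 and 10 counts, RPS18 had 69 and 44, and LSM2, a splicing factor subunit, had 0 in both. TUBB was the only one of 29 housekeeping genes, and RPS18 the only one of 79 ribosomal protein genes, that did not reach 1 CPM in both libraries.

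Of 23 antigen presentation genes, 13 had 3 counts or fewer in both libraries, among them HLA-C, TAP1, PSMB8, PSMB9 and HLA-DRA. All 13 lie in that interval, and so do 17 of the 23. Low counts there are therefore no measure of how much HLA class I transcript the cells made, and the cause was not tested. Of the 6 members elsewhere, B2M, the light chain of class I molecules, had 566 and 503 CPM, CALR, a chaperone, 1358 and 1385 CPM and ERAP1, a peptide trimming enzyme, 125 and 148 CPM. CD74 had 30 and 29 counts, NLRC5, the transactivator of class I genes, 4 and 8 and CIITA, that of class II, 0 and 4. At the end of Xp, up to 2.7 Mb, 6 of 15 genes (40.0%) reached 1 CPM, beside 6 of 12 (50.0%) in the next 5 Mb, and CD99 at that end had 80 counts in replicate 1 and 2460 in replicate 2.

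**Figure D2:**
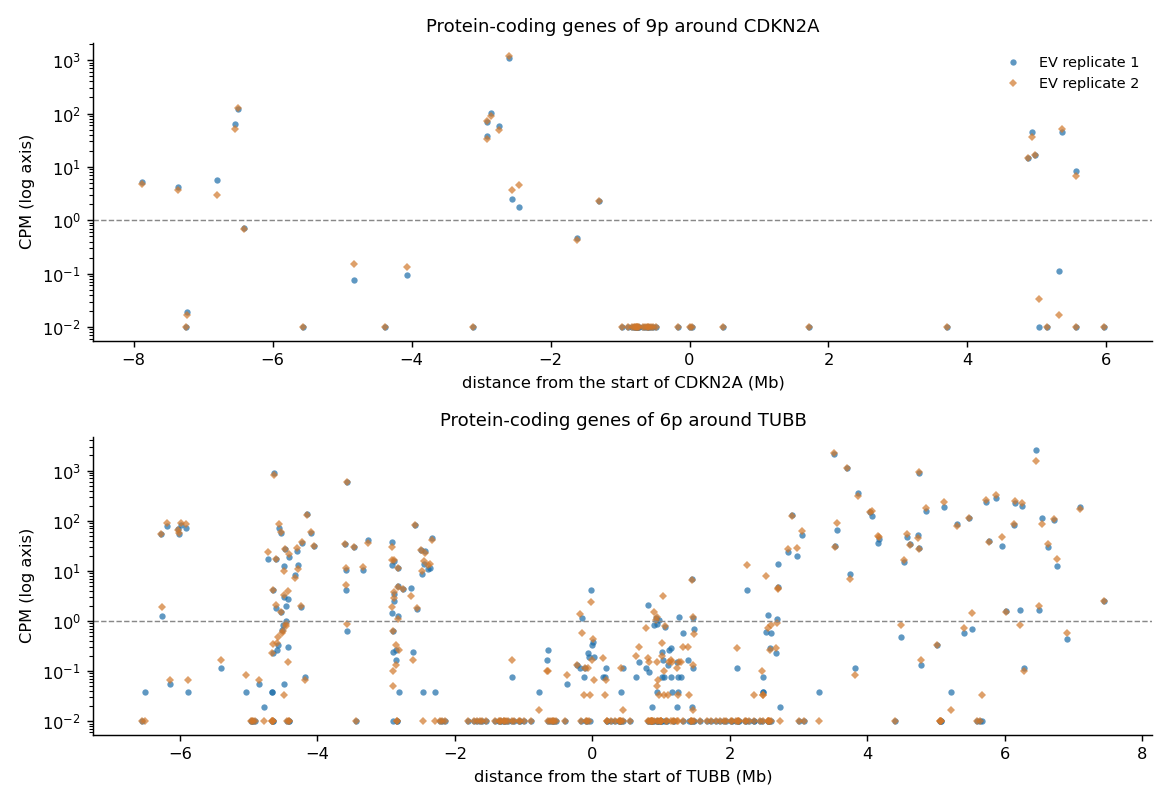
CPM of protein-coding genes on a log axis against distance in Mb from the start of CDKN2A on 9p (top) and of TUBB on 6p (bottom), with EV replicate 1 as circles and EV replicate 2 as diamonds. Values under 0.01 CPM are drawn at 0.01 and the dashed line marks 1 CPM. A run of 24 genes at 0 surrounds CDKN2A, and in the interval around TUBB 7 of 163 genes reach the line in both libraries, against 55 of 100 genes before it and 40 of 61 after it.

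Ligands that NK cells read were a mixed group. Of 18 genes, 10 (55.6%) reached 1 CPM in both libraries, near the 58.7% of all protein-coding genes. NECTIN2, a ligand of DNAM-1, had 143 and 155 CPM, ICAM1 91.2 and 97.8 CPM and CD58 25.4 and 24.4 CPM. NCR3LG1 (B7-H6), the ligand of NKp30, had 37.3 and 63.5 CPM. The NKG2D ligand ULBP1 had 14.7 and 21.5 CPM, and ULBP3 and RAET1E had 0 counts. MICA and MICB, with 8 and 18 and with 6 and 44 counts, lie in the 6p interval and cannot be read. BAG6, with 62 counts in each library, lies there too. Without these 3 genes, 9 of 15 reached 1 CPM in both libraries.

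Across windows of 2 Mb with at least 15 protein-coding genes, 4 of 428 had fewer than 10% of their genes at 1 CPM in both libraries, and the median window had 64%. A pair of them were the windows from 30 to 32 Mb of chromosome 6 (2 of 87 genes) and from 20 to 22 Mb of chromosome 9 (1 of 22). The others were the window from 54 to 56 Mb of chromosome 11 (0 of 28 genes) and that from 6 to 8 Mb of chromosome 8 (2 of 42).

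Sugar metabolism was carried by a few forms of each enzyme. Of 27 glycolysis genes, 23 reached 1 CPM in both libraries, with a median of 167 TPM. GAPDH had 3032 and 3151 TPM, ALDOA 1976 and 1632 TPM and ENO1 1228 and 1254 TPM. Hexokinase was HK1 (502 and 530 TPM) far above HK2 (20.7 and 31.2 TPM), a ratio of 24.3 and 17.0, and HK3 had 0 counts. LDHB (840 and 996 TPM) was above LDHA (302 and 318 TPM), by 2.78 and 3.13 times. The pyruvate kinase of red cells and liver, PKLR, had 168 and 194 TPM and the common form PKM 190 and 167 TPM, which overlapped. SLC2A1 (GLUT1), the glucose transporter of red cells and many tumours, had 331 and 269 TPM. LDHC, the form of testis, had 0 counts in both libraries.

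All 28 citrate cycle genes reached 1 CPM, from a mean of 17.2 TPM upwards. MDH2 had 684 and 603 TPM and CS, citrate synthase, 310 and 296 TPM, and SDHD, IDH1 and SDHB followed, with means of 265, 252 and 250 TPM. For serine, glycine and one-carbon metabolism 23 of 25 genes reached 1 CPM. PSAT1, the second enzyme of serine synthesis, had 319 and 428 TPM, PHGDH, the first, 195 and 216 TPM, and SHMT2, which makes glycine in mitochondria, 303 and 398 TPM. AHCY had 382 and 327 TPM, CBS 221 and 282 TPM and ATIC 260 and 203 TPM. GLDC, which breaks glycine down, and ALDH1L1 had 0 counts in both libraries.

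Transcripts of the mitochondrial genome took 2.73% of the counts in replicate 1 and 1.54% in replicate 2, the largest difference between the libraries in any list by summed CPM (27267 and 15394). MT-CO1 had 5360 and 2745 CPM, MT-CO2 3145 and 1598 CPM and MT-CO3 3110 and 2102 CPM, all subunits of cytochrome c oxidase. MT-ND4, a complex I subunit, had 4944 and 2179 CPM. In all, 14 of 15 genes were lower in replicate 2. MT-ND3, a further complex I subunit, went the other way, with 158 and 324 CPM. MT-RNR1 and MT-RNR2, ribosomal RNAs, had 251 and 151 CPM and 3560 and 2334 CPM.

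Reference genes were even between the libraries. Of 29 housekeeping genes 28 reached 1 CPM in both, and for these the level in replicate 2 was between 0.838 (TBP) and 1.33 (PPIA) times that in replicate 1. ACTB had 2208 and 2094 CPM, GAPDH 1847 and 1867 CPM and RPLP0 4251 and 3942 CPM. RPL13A had 2286 and 2418 CPM.

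Ribosomal protein genes took 8.02% and 8.64% of the counts, and 78 of 79 reached 1 CPM in both libraries, with a median of 1108 TPM. RPS12 led with 8511 and 7193 TPM, followed by RPS2, RPLP0 and RPL7A. A few stood far below. RPS18 had 69 and 44 counts and RPS19 380 and 384. As such genes have numerous pseudogenes of near-identical sequence, the counts of single members are uncertain.

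Histone genes split into a few high members and many low ones. Of 11 replication-dependent histone genes, whose usual transcripts end in a stem-loop without poly A, 6 reached 1 CPM. H2BC12 had 4759 and 4854 TPM and H1-2 4710 and 4615 TPM, while H2AC6 had 171 and 210 TPM and H2BC21 176 and 174 TPM. H3C14, one of several identical genes, had 0 counts. Of the 8 replacement histones, made throughout the cell cycle, 7 reached 1 CPM, led by H2AZ1 with 613 and 742 TPM, H2AX with 412 and 486 TPM and H3-3A with 385 and 379 TPM.

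All 35 cell cycle genes reached 1 CPM in both libraries, with a median of 127 TPM. MCM7, a subunit of the replicative helicase, had 540 and 626 TPM, TOP2A 455 and 503 TPM, CDC20 436 and 407 TPM and CCNA2 364 and 321 TPM. CDK4 had 306 and 334 TPM. MKI67 had 150 and 204 CPM.

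Of 35 cancer-testis and fetal genes, 25 (71.4%) reached 1 CPM in both libraries, beside 58.7% of all protein-coding genes. HMGA1, an architectural chromatin protein of fetal and tumour cells, led with 3627 and 3806 TPM, followed by PRAME with 2169 and 2071 TPM. SSX1 had 296 and 374 TPM, PAGE5 263 and 341 TPM and MAGEB2 193 and 242 TPM. MAGEA3 and MAGEA6 are nearly identical, with a ratio of TPM of 0.980 and 0.944, so their split is uncertain. CTCFL (BORIS), the testis relative of CTCF, had 446 and 441 CPM, and the fetal RNA-binding proteins IGF2BP1 and IGF2BP3 had 200 and 210 CPM and 100.3 and 128 CPM. IGF2 and CTAG1B had 0 counts, MAGEA10 had 2 and 0 and CT45A1 3 and 1. GAGE genes are near-identical copies and their counts are uncertain.

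Stress genes were led by chaperones. HSP90AB1 had 2550 and 2396 TPM, HSPA5 (BiP), the chaperone of the endoplasmic reticulum, 1479 and 1412 TPM and HSP90AA1 822 and 769 TPM. ATF4, the factor of the integrated stress response, had 739 and 807 TPM and DDIT3 (CHOP), which it induces, 389 and 464 TPM. HSPA1A and HSPA1B had 7 and 2 and 14 and 9 counts, but both lie in the 6p interval. APOE and APOC1, neighbouring genes of lipid transport, had 514 and 227 CPM and 119 and 54.8 CPM. Of the metallothioneins MT2A had 21.3 and 39 CPM, MT1X 9.31 and 15.4 CPM and MT1G 2.11 and 4.31 CPM, and MT1A, MT1M and MT3 had 1 count or none.

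**Figure D3:**
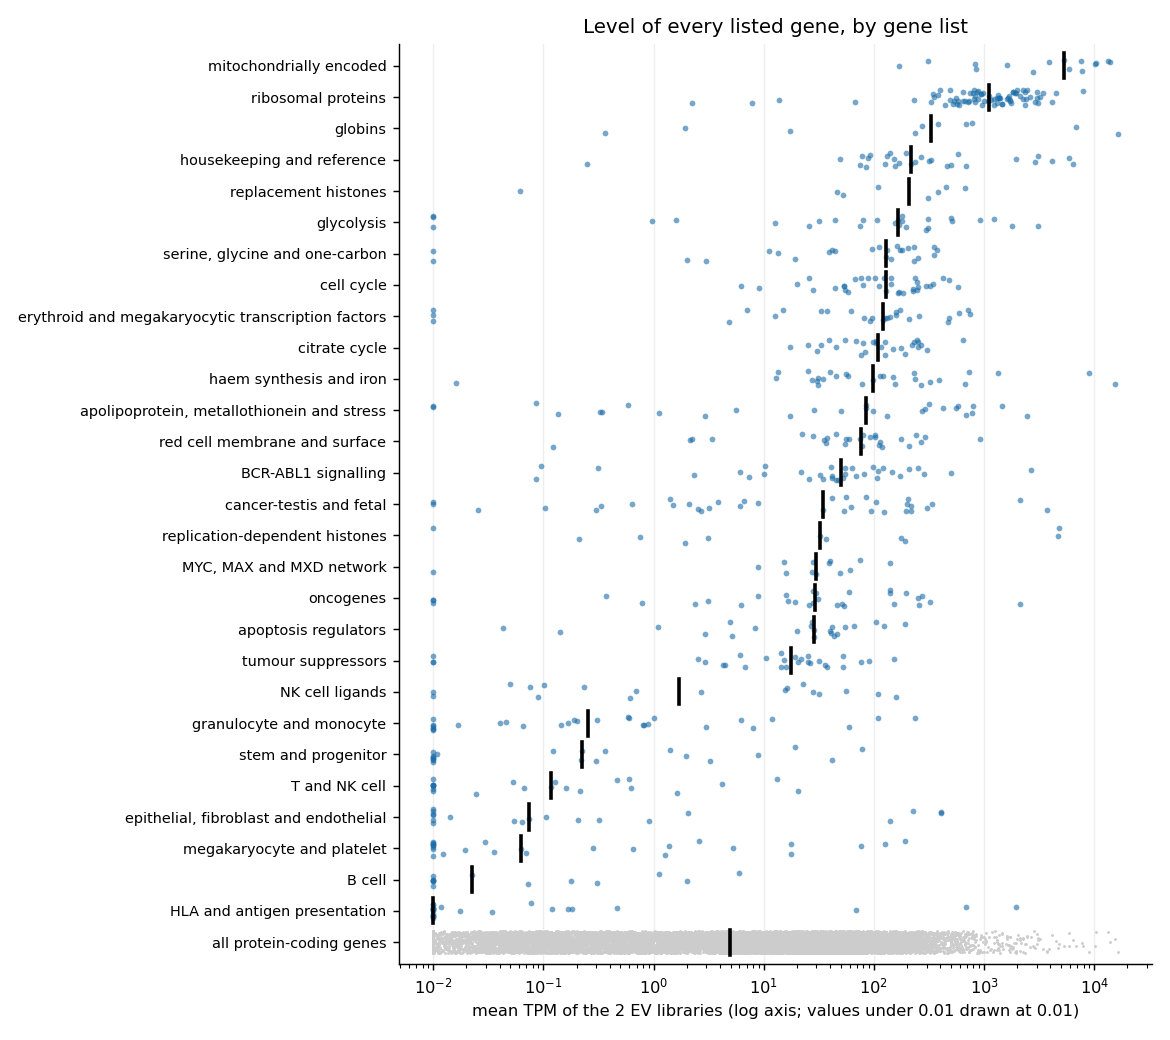
Mean TPM of every listed gene on a log axis, with 1 row for each of the 28 lists, ordered by median, and all protein-coding genes in grey below. A black bar marks each median and values under 0.01 TPM are drawn at 0.01. Medians run from 5321 TPM for mitochondrially encoded genes to under 0.01 for antigen presentation genes, 17 of whose 23 members lie in the 6p interval, with 4.94 TPM for all protein-coding genes.

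The libraries were close to each other over most genes. Of the 12070 genes at 1 CPM or more in both, 90 (0.746%) were over 2-fold higher in replicate 2 and 46 (0.381%) over 2-fold lower. The median gene differed by 1.14 times and 9 in 10 genes by less than 1.44 times. The biological coefficient of variation, the spread left after counting error, was 14.8% by the common dispersion of edgeR, and by level it ran from 21.4% at 1 to 10 CPM to 11.3% at 100 to 1000 CPM. Among genes at 10 CPM or more in both libraries, 12 differed over 2-fold.

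Of the listed genes with a mean of at least 10 CPM, the 5 that differed most were all lower in replicate 2. Among them were MT-ND4 by 2.27 times, APOE by 2.26 times, APOC1 by 2.18 times and SOCS1, a feedback inhibitor of JAK signalling, by 2.17 times. The lists that held most genes past 2-fold were the apolipoprotein, metallothionein and stress list, with 3 of 18, and the mitochondrially encoded genes, with 2 of 15. Over all genes it was 136 of 12070 (1.13%). In the stem and progenitor list 1 of 9 was past it, ENG, with 4.69 and 1.63 CPM. HBZ, PIM1 and KIT were lower in replicate 2 too, at 0.582, 0.613 and 0.527 times the level of replicate 1, and MYC was at 1.00 times. Of the 10 globins 8 were lower in replicate 2, and HBE1 (1.01 times) and HBA2 (1.28 times) were higher. No list of red cell membrane, haem, glycolysis, citrate cycle, one-carbon, cell cycle or housekeeping genes held a gene past 2-fold among those at 1 CPM or more in both. Most other lists held none either. With 1.13% over all genes, lists this short would mostly hold none, so this is no trait of these programmes. The part of the mitochondrial share in the differences between the libraries was not tested.

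**Figure D4:**
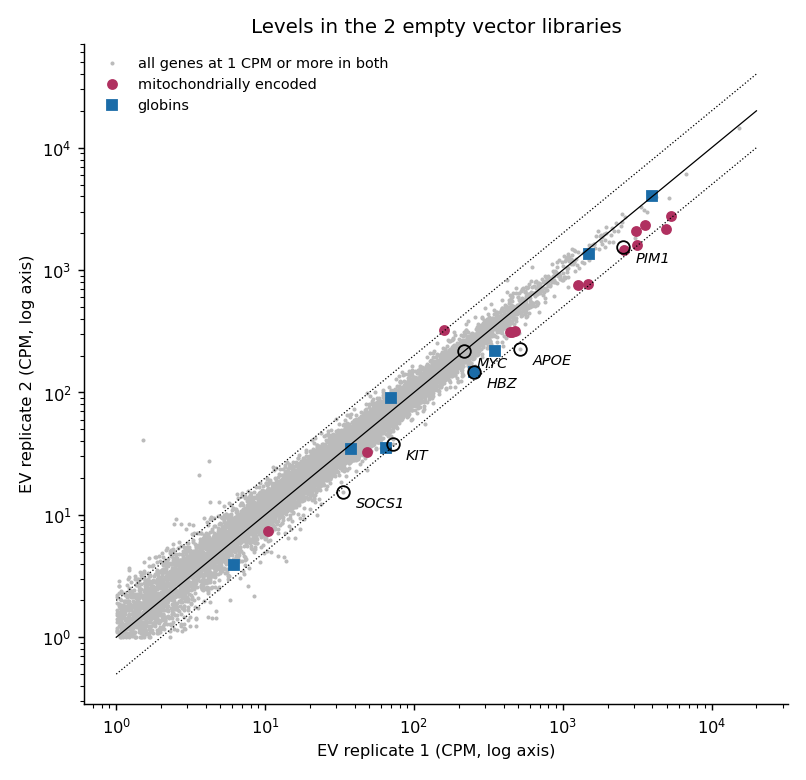
CPM of the 12070 genes at 1 CPM or more in both libraries, EV replicate 1 against EV replicate 2, on log axes, with mitochondrially encoded genes as filled circles, globins as squares and 6 named genes ringed. The solid line is equality and the dotted lines mark 2-fold. Most genes lie near the line, and 14 of 15 mitochondrial genes lie below it.

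Promoters of 15116 of the 18918 protein-coding genes were in the RefSeq table. Of the globins only HBD and HBM had an entry. The GC box was found in 57.1% of all these windows. It was in 39.3% of promoters of genes under 1 TPM, in 61.7% at 1 to 10 TPM, in 69.9% at 10 to 100 TPM, in 72.4% at 100 to 1000 TPM and in 66.2% of the 71 promoters at 1000 TPM and over. TATAAA was in 9.06% of all windows. It was commoner at both ends of the range, with 15.3% under 1 TPM, 4.17% at 10 to 100 TPM and 12.7% at 1000 TPM and over. AGATAA was in 6.79% of all windows and in 10.7% of those under 1 TPM, against 3.71% at 10 to 100 TPM. CACGTG was in 7.85% of all, with 5.66% under 1 TPM, 11.1% at 100 to 1000 TPM and 7.04% at 1000 TPM and over. CCAAT was in 34.8% of all windows, with 33.3% under 1 TPM and 39.5% at 100 to 1000 TPM, and CACCC was in 58.0% of all, between 54.9% and 58.8% in every class. The median G and C content of the windows moved alongside, from 56.8% under 1 TPM to 65.6% at 10 to 100 TPM, and its part in these shares was not tested.

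In the promoters of 21 red cell membrane and surface genes, AGATAA was in 33.3% and CACCC in 76.2%, and in those of 23 erythroid and megakaryocytic transcription factors they were in 8.70% and 60.9%. For 22 haem and iron genes the shares were 9.09% and 45.5%. Over all windows they were 6.79% and 58.0%. In lists outside the red cell they were 8.33% and 83.3% for 24 glycolysis genes and 4.0% and 68.0% for 25 cancer-testis and fetal genes. For 63 ribosomal protein genes they were 4.76% and 46.0%, so a high CACCC share was not particular to red cell genes. With so few promoters these shares are descriptions only.

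**Figure D5:**
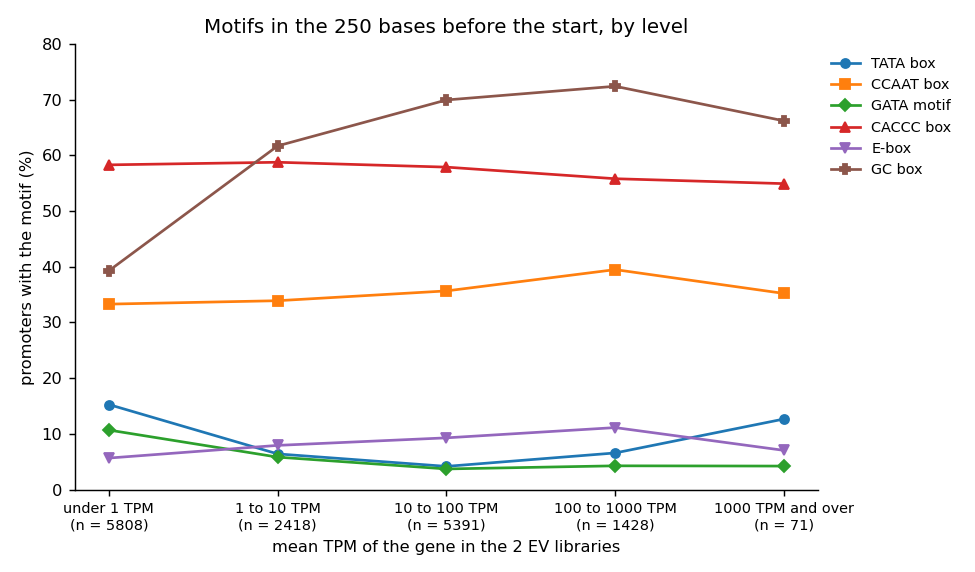
Share of promoters (250 bases before the start) that hold each of 6 motifs on either strand, in 5 classes of mean TPM, with the number of promoters under each class. The GC box rises from 39.3% to 72.4% and falls to 66.2% in the top class, and the TATA box is lowest, at 4.17%, between 10 and 100 TPM.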

How the data were processed

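RNA of K562 cells was sequenced by the authors as poly A libraries and aligned to hg19. The submitters' processing notes name HISAT2 2.2.1 and featureCounts 2.0.1, while the study's methods name another RNA pipeline without saying which made these tables. Annotation, use of strand and treatment of reads with several matches are not given in the sources used here. The deposited values were raw counts per NCBI Gene identifier, 1 table per library. Both EV tables were used, the other 4 only for MXD3 and STIM1. Of counts between 1 and 39, 59.8% and 65.0% were even, so part of them may hold both ends of a read pair.

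CPM is the count over the library total, with no scaling between libraries. TPM divides by the union of exons in GENCODE 44 mapped to GRCh37. Of 25702 identifiers, 23696 were matched to a symbol and 22685 to a length, and those without a symbol held 0.231% and 0.249% of the counts. With 2 libraries the SD describes only their spread, and no test between genes was made. A gene was called above another where both of its libraries lay above both of the other's. Exact Poisson intervals (95%) cover counting error only. They take counts as independent, so where counts hold both ends of a read pair they are too narrow. Dispersion came from edgeR 4.0.16 in R 4.3.3 with an intercept only, a step tested on simulated data, and DESeq2 1.42.0 gave alternative size factors. Python 3.11 libraries pandas and scipy did the rest. Other totals, scalings, lengths and filters were tried as alternatives.

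The 28 gene lists (709 of 710 entries matched, 677 distinct genes) were written from general knowledge, and members and lists were chosen with earlier results of these data known. Named genes were HBZ, PIM1, MYC, MXD3, STIM1, all globins, the 15 genes of highest CPM and of highest TPM, up to 5 top members and up to 6 members at 3 counts or fewer of each list, and the 5 listed genes that differed most between the libraries. Other genes were named for their known role or after their values were seen. Some genes that this rule names are not reported here.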

Additional observations from a re-analysis of the deposited data

How the results depend on the processing

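Of 53 alternative values for 14 results, 47 stayed within the spread of the libraries (1 SD) or within 1.5 times the count reported. With 2 libraries, a level or share from a single library always lies within 1 SD of the mean. Such values are counted among the 47 but could not have moved, so they say nothing of stability. The number of genes over 2-fold between the libraries (136) was 1926 with a filter of 1 count in both and 12 with at least 10 CPM in both. The mean MYC level was 221 CPM against 216 when mitochondrially encoded genes were left out of the totals, which moves every other gene by the same factor within a library. PIM1 ranked 33rd by TPM with all exons, 55th with the longest transcript and 89th with the canonical transcript, and GATA1 ranked 147th, 254th and 326th. Without the members in the 6p interval, 0 of 6 antigen presentation genes had 3 counts or fewer, against 13 of 23 with them. The canonical length and the list without the interval were chosen after seeing the data. Leaving out each library in turn gave 147 to 253 CPM for HBZ, 1545 to 2520 for PIM1, 216 to 217 for MYC, 5885 to 6231 for the summed globins, 233 to 245 for the summed granulocyte and monocyte genes, 12253 to 12411 genes at 1 CPM and 17.8% to 19.4% for the 100 most counted genes. The number of genes over 2-fold gives no value with a single library. No paired analysis was possible because the description uses 1 group only and no test. Depth limits what is said of genes under about 0.06 CPM, which 3 counts stand for.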
